A study of Mus musculus with 9 samples.

Results

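The 10 histone variant genes described here are H1f0, H1f10, H2ax, H2az1, H2az2, H3f3a, H3f3b, Macroh2a1, Macroh2a2 and Cenpa. They were taken by gene symbol as a set of variants made largely outside DNA replication. They are 10 of the 52306 named genes kept from the expression table, after leaving out 19 names on more than 1 chromosome. The cells were 4T1, a mouse mammary carcinoma line grown in culture, sampled at day 2 in 9 RNA-seq libraries. A control group labelled NC (negative control), a group treated with MK1775 (adavosertib, an inhibitor of the cell cycle kinase Wee1) and a group labelled Wee1 siRNA held 3 libraries each. All 9 libraries carry a label for inhibition of cell proliferation, the NC libraries included. The sources used here do not say what the NC cells received, which MK1775 dose was used, or whether the siRNA libraries repeat 1 siRNA. The labels do not say that the libraries come from separate cultures, and p-values then reflect the spread between these libraries alone, which may be technical.

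Most histone genes are transcribed during DNA replication and give messages that end in a stem-loop instead of a poly(A) tail. Variant histones are encoded by separate genes, whose messages are mostly polyadenylated and made through the cell cycle, and they replace the standard histones at particular places: H3.3 at active genes and repeats, H2A.Z at promoters, macroH2A on silenced chromatin and CENP-A at centromeres. Linker histones of the H1 family bind the DNA between nucleosomes, and H1.0, the product of H1f0, is known to accumulate in cells that stop dividing. H2A.X carries the phosphorylation that marks DNA double-strand breaks, and its gene is known to give both stem-loop and polyadenylated messages. Whether poly(A) RNA was selected for these libraries is not stated.

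Values are FPKM (fragments per kilobase of transcript, relative to all fragments mapped in a library), summed over the transcripts that carry a gene's name. FPKM is a per-length scale, so levels can be set side by side between genes, but it is a share of a library and not an amount per cell. Fewer cells of a kind and less RNA per cell cannot be told apart. Differences are given on log2(FPKM + 1) from limma, with p-values adjusted by the Benjamini-Hochberg method over the 10453 genes whose mean over the libraries reached 1 FPKM. A gene is called where its adjusted p is under 0.05. An exact permutation test of 3 libraries against 3 cannot go below p = 0.1. The NC libraries serve in both comparisons of treated cells, so these are not independent of each other.

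Wee1, the kinase that MK1775 inhibits and the siRNA label names, stood at 11.5, 10.5 and 11.0 FPKM in the NC libraries. It was at 15.0, 14.7 and 16.8 FPKM with MK1775, and at 13.1, 15.1 and 15.3 FPKM in the libraries labelled Wee1 siRNA. Wee1 RNA was thus higher, not lower, under the siRNA label, by 0.37 on the log2 scale (limma adjusted p = 0.00633), and the group is called by its label throughout. Of the epithelial keratins, Krt8 averaged 196, 290 and 267 FPKM and Krt18 251, 475 and 435 FPKM in NC, MK1775 and siRNA-labelled libraries. Cdh1 averaged 2.80, 5.32 and 5.35 FPKM and Epcam at most 0.435 FPKM, so 2 of these 4 epithelial markers were low in a line labelled breast cancer. Of immune markers, Cd3e was listed at 0 in the 9 libraries and Ptprc reached at most 0.698 FPKM. Ptprc was too low to test and averaged 0.0126 FPKM in NC, 0.170 FPKM with MK1775 and 0.326 FPKM under the siRNA label. The macrophage markers Cd68 and Cd14 were measurable and lower in all treated libraries, Cd68 at 3.42 to 3.89 FPKM in NC and 1.75 to 3.27 FPKM in the others, and Cd14 at 4.96 to 6.17 and 3.33 to 4.73 FPKM. Cd68 was called with MK1775 (-0.54, adjusted p = 0.0142) and not under the siRNA label (-0.38, adjusted p = 0.0573). Cd14 was called in neither (-0.36 in both, adjusted p = 0.0542 and 0.0552). Markers of other cell types did not move together. Stromal Pdgfrb averaged 1.44, 0.790 and 0.768 FPKM and the blood marker Itga2b 0.0420, 0.762 and 1.06 FPKM, both too low to test. Stromal Pdgfra averaged 1.15, 1.22 and 1.60 FPKM and was called in neither comparison. The epithelial markers were higher and the macrophage markers lower in the treated groups, while the mean of Ptprc was higher. Several histone variants also differed between these groups, and the part of the markers in the results was not tested. Summed FPKM per library ran from 321551 to 332950, and the number of reads behind the values is unknown.

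Of the 10 variant genes, 8 were high enough to test, and 5 of these 8 were called in each treated comparison. H1f0, H2ax, H2az2 and H3f3b rose and H2az1 fell, both with MK1775 and under the siRNA label. The background was high: 41% of all tested genes were called with MK1775 and 42.8% under the siRNA label. By direction, 4 of 8 variants rose where 17.9% and 19.6% of all tested genes did, and 1 of 8 fell where 23.1% and 23.2% did. The 8 genes had a median difference of 0.48 with MK1775 and 0.38 under the siRNA label, beside -0.040 and -0.013 over all tested genes. The 3 values of each group did not overlap for 7 of 8 variants with MK1775 and 6 of 8 under the siRNA label. Over all tested genes, 54% and 52.2% were apart in this way. The variants were chosen with earlier results of these data known, so these counts and medians describe the list and do not test it.

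**Figure D1:**
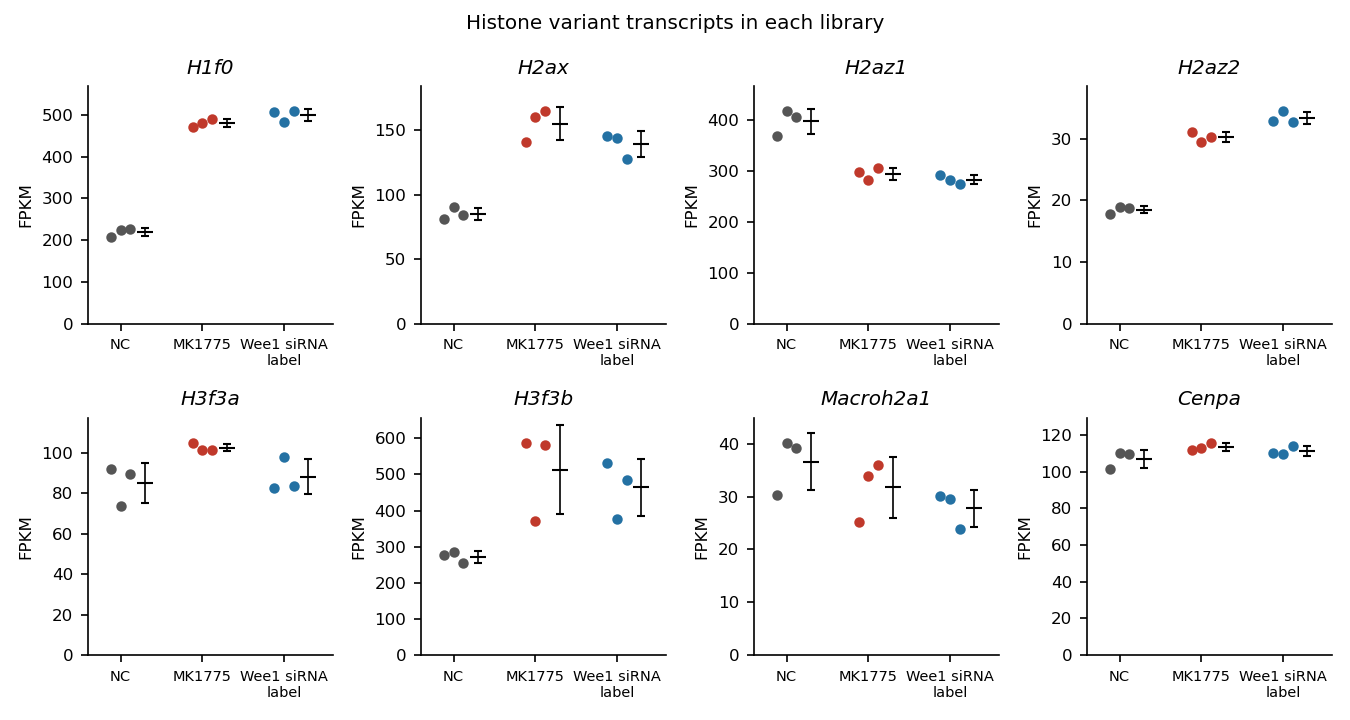
FPKM of the 8 tested variant genes in each library (points), with the group mean and SD (black), for NC, MK1775 and the Wee1 siRNA label; each axis starts at 0. H1f0 stands between 472 and 508 FPKM in the 6 treated libraries and between 207 and 227 in the NC libraries, while Cenpa stays between 101 and 116 FPKM in all 9.

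In the NC libraries, H2az1 was the most abundant of the 10 genes at 397 ± 24.9 FPKM (SD, n = 3), followed by H3f3b at 271 ± 15.4, H1f0 at 219 ± 10.5 and Cenpa at 107 ± 5.00 FPKM. H2ax and H3f3a came next, both at 85.1 FPKM, and were the only neighbours in this order whose values overlapped. Macroh2a1 followed at 36.6 ± 5.43 FPKM and H2az2 at 18.5 ± 0.611 FPKM. Macroh2a2, at 0.139 ± 0.0449 FPKM, and H1f10, listed at 0, closed the order. With MK1775, H3f3b (513 ± 123 FPKM) and H1f0 (480.5 ± 8.52 FPKM) stood above H2az1 (295 ± 11.9 FPKM). The values of H3f3b and H1f0 overlapped each other and lay above those of H2az1.

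H1f0 lies at chr15:78912650-78914704 on the plus strand (GRCm39), as 1 transcript with 1 exon. Its level was 207, 223 and 227 FPKM in the NC libraries. It was 472, 481 and 489 FPKM with MK1775 and 508, 484 and 508 FPKM under the siRNA label. All 6 treated libraries stood above all NC libraries, and the 2 treated groups overlapped. The level was 2.19-fold higher with MK1775, a log2 difference of 1.13 (SE 0.044, adjusted p = 1.18e-06), and 2.28-fold higher under the siRNA label, a log2 difference of 1.19 (SE 0.044, adjusted p = 8.71e-07). Among the 10 genes these were the largest differences in both comparisons. H1f10, the other replication-independent linker histone (chr6:87957403-87958723, minus strand), was listed at 0 in 7 libraries and at 0.0285 and 0.0589 FPKM in MK1775 replicate 3 and siRNA-labelled replicate 3, so nearly all RNA of this pair came from H1f0.

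The replication-dependent linker histone genes H1f1 to H1f5 give the setting for H1f0. Together they summed to 5.94 ± 0.834 FPKM in NC, 128 ± 9.91 FPKM with MK1775 and 123 ± 7.26 FPKM under the siRNA label (SD, n = 3 each). H1f0 made up 97.3%, 97.0% and 97.8% of the summed FPKM of these 6 genes in the NC libraries. It made up 79.0 ± 1.01% with MK1775 and 80.2 ± 0.556% under the siRNA label, so its share fell while its level rose. Stem-loop messages of the other 5 genes would be largely missed if poly(A) RNA was selected, which is not stated. The shares are thus of measured FPKM and may not be those of all RNA. H1f2 carried most of the other genes' sum, at 5.62 FPKM in NC, 119 FPKM with MK1775 and 116 FPKM under the siRNA label (log2 differences 4.19 and 4.14). Of these 5 linker genes, 3 passed the filter on low values, H1f1, H1f2 and H1f3, and these rose in both comparisons, beside 17.9% and 19.6% of all tested genes. H1f1 and H1f3 passed through their treated libraries, so they had to differ, and the count says nothing of the 5 genes as a group. H1f4 and H1f5 were too low to test. H1f4 stood at 0.0277 to 0.0394 FPKM in NC and 1.51 to 1.79 FPKM with MK1775. Under the siRNA label it stood at 1.75, 0.0455 and 1.92 FPKM, with replicate 2 near the NC values. H1f5 went the other way, at 0.201 to 0.262 FPKM in NC and 0.0176 to 0.0671 FPKM in the treated libraries.

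H2ax (chr9:44245991-44247374, plus strand, 1 transcript) stood at 81.0, 90.4 and 84.0 FPKM in NC. It stood at 140, 160 and 164 FPKM with MK1775 and at 146, 144 and 127 FPKM under the siRNA label. The treated libraries were all above the NC libraries and overlapped between the treatments. H2ax rose 1.82-fold with MK1775 (log2 difference 0.85, SE 0.079, adjusted p = 9.96e-05) and 1.63-fold under the siRNA label (0.70, SE 0.079, adjusted p = 2.62e-04). The difference between the treatments was 0.15 (95% interval -0.027 to 0.34, adjusted p = 0.852), and 0.093 without siRNA-labelled replicate 3.

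The H2A.Z pair moved in opposite directions. H2az1 encodes H2A.Z.1 and H2az2 encodes H2A.Z.2, which are known to differ in only a few residues. The coding sequences of the 2 genes, of 384 bases each in GENCODE M21, were identical at 304 bases (79.2%), and the longest stretch they shared was 14 bases. H2az1 (chr3:137570248-137572683, plus strand, 7 named transcripts) stood at 369, 417 and 405 FPKM in NC, at 297, 282 and 305 FPKM with MK1775, and at 292, 283 and 274 FPKM under the siRNA label. All treated libraries lay below all NC libraries. The NC level was 1.35-fold that with MK1775 (log2 difference -0.43, SE 0.055, adjusted p = 5.33e-04) and 1.40-fold that under the siRNA label (-0.49, SE 0.055, adjusted p = 2.71e-04).

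H2az2 (chr11:6377229-6394443, minus strand, 2 named transcripts) stood at 17.8, 18.9 and 18.7 FPKM in NC. It stood at 31.1, 29.4 and 30.2 FPKM with MK1775 and at 32.9, 34.4 and 32.7 FPKM under the siRNA label. The 3 groups did not overlap. H2az2 rose 1.64-fold with MK1775 (log2 difference 0.68, SE 0.045, adjusted p = 2.02e-05) and 1.80-fold under the siRNA label (0.82, SE 0.045, adjusted p = 7.85e-06). One of its transcripts, ENSMUST00000109737, averaged 11.0 FPKM in NC, 21.7 FPKM with MK1775 and 22.8 FPKM under the siRNA label. The other, ENSMUST00000093346, averaged 7.44, 8.60 and 10.5 FPKM. The first took 54.8% to 62.1% of the gene's FPKM in NC and 67.2% to 75.1% in the treated libraries, without overlap.

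Because H2az1 was so much the higher of the pair, its fall outweighed the rise of H2az2. Their sum went from 416 ± 25.5 FPKM in NC to 325 ± 12.4 FPKM with MK1775 and 316 ± 9.34 FPKM under the siRNA label. The share of H2az1 in the sum was 95.4%, 95.7% and 95.6% in NC. It was 90.5%, 90.5% and 91.0% with MK1775 and 89.9%, 89.2% and 89.3% under the siRNA label. The shares of the 3 groups did not overlap.

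The sequences upstream of H2az1, H2az2 and H3f3b are shown because H2A.Z partners moved apart and because these 3 windows hold several copies of the CCAAT box, the letters bound by the factor NF-Y, which is known at promoters of cell cycle genes. Each is the stretch of 250 bases before the RefSeq start, 5′ to 3′ on the gene's strand, from RefSeq on GRCm38.p6: chr3:137864237-137864486 for H2az1, chr11:6444444-6444693 for H2az2 and chr11:116024505-116024754 for H3f3b. Capitals mark CCAAT on the printed strand or on the other one (ATTGG).
H2az1: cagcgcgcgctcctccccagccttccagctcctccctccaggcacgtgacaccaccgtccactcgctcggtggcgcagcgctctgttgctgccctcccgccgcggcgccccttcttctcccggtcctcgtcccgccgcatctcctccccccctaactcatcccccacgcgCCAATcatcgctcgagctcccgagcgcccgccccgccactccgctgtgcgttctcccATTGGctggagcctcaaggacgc
H2az2: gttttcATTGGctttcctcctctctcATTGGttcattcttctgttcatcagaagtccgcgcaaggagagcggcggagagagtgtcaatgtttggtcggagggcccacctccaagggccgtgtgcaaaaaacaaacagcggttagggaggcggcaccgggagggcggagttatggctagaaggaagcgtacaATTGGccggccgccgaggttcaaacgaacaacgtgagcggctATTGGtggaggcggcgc
H3f3b: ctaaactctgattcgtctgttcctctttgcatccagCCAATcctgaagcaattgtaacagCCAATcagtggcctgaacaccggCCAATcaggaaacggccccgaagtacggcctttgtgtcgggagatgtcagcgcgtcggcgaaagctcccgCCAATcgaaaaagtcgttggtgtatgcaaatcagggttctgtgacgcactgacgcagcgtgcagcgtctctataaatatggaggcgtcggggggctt
The H2az1 window holds 2 copies, at 80 and 23 bases before the start. The H2az2 window holds 4, at 244, 224, 59 and 17 bases, and 1 TTTGAA on either strand, here read as TTCAAA, at 41 bases. H3f3b has 4, at 214, 190, 167 and 97 bases, and a TATAAA at 27 bases. Over all 32851 promoter windows of this length, 33.8% held at least 1 CCAAT and 2.79% at least 3. TTTGAA was in 16.0% and TATAAA in 12.4% of them, each searched on both strands. The 3 printed windows were picked in part for their CCAAT copies, so these shares describe the windows and do not test them. Of the 10 genes, 9 matched a window, and 5 of the 9 held a CCAAT: these 3, H3f3a with 1 copy and Cenpa with 2. Cenpa, whose window is not printed, thus has as many copies as H2az1. The windows of H1f0, H1f10, Macroh2a1 and Macroh2a2 do not hold those letters. These are matches of letters, no binding was measured, and any link of the box to the RNA changes was not tested.

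**Figure D2:**
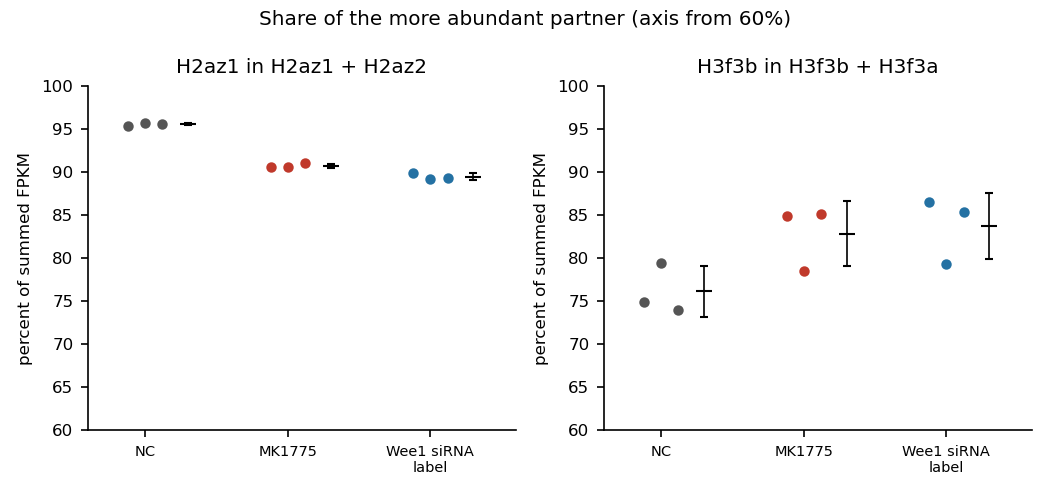
Share of the more abundant partner in the summed FPKM of H2az1 and H2az2 (left) and of H3f3b and H3f3a (right), in percent, per library, with the group mean and SD; the axes start at 60%. The share of H2az1 falls from about 95.6% in NC to 90.7% and 89.5%, without overlap. For the H3.3 pair, replicate 2 of both treated groups, at 78.47% with MK1775 and 79.35% under the siRNA label, lies within the NC range, which reaches 79.44%.

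H3f3a and H3f3b encode the same H3.3 protein from different messages. Their coding sequences, of 408 bases each in GENCODE M21, were identical at 313 bases (76.7%), with a longest shared stretch of 23 bases. Both genes, and H2az1, are known to have processed copies elsewhere in the mouse genome, and how reads shared with such copies were assigned is not given in the sources used here. H3f3b (chr11:115912738-115919309, minus strand, 4 named transcripts) stood at 276, 284 and 254 FPKM in NC, at 587, 370 and 581 FPKM with MK1775, and at 530, 377 and 485 FPKM under the siRNA label. Every treated library was above every NC library, but replicate 2 of both treated groups was low. H3f3b rose 1.89-fold with MK1775 (log2 difference 0.89, SE 0.19, adjusted p = 0.00694) and 1.71-fold under the siRNA label (0.76, SE 0.19, adjusted p = 0.0132).

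At the H3f3b locus the authors' table also holds 3 assembled transcripts without a gene name. They summed to 22.2, 0.0490 and 41.5 FPKM in NC, to 1.29, 169 and 0.591 FPKM with MK1775, and to 42.3, 138 and 135 FPKM under the siRNA label. Their part was high in the libraries where the named part was low. With them added, H3f3b stood at 298, 284 and 296 FPKM in NC, at 588, 540 and 581 FPKM with MK1775, and at 573, 515 and 620 FPKM under the siRNA label. The SD with MK1775 was then 26.4 FPKM in place of 123, and the log2 difference was 0.96 in both comparisons (adjusted p = 5.51e-06 and 5.38e-06).

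H3f3a (chr1:180628397-180641508, minus strand, 7 named transcripts) stood at 92.2, 73.5 and 89.5 FPKM in NC, at 105, 102 and 101 FPKM with MK1775, and at 82.7, 98.1 and 83.7 FPKM under the siRNA label. The MK1775 libraries were above all others, and the siRNA-labelled libraries overlapped with NC. The log2 difference with MK1775 was 0.27 (SE 0.096, adjusted p = 0.0513), which missed the threshold and passed it in 7 of 22 alternative settings. It was 0.34 without NC replicate 1 (adjusted p = 0.0378) and 0.17 without NC replicate 2 (adjusted p = 0.119). Without siRNA-labelled replicate 2, which lends its spread to the fit, the adjusted p was 0.0375. Under the siRNA label the difference was 0.054 (95% interval -0.17 to 0.28, adjusted p = 0.687), and it ranged from -0.047 without NC replicate 2 to 0.11 without NC replicate 1. The main transcript, ENSMUST00000161308, took from 61.5% to 93.6% of the gene's FPKM among the libraries, with the highest share in NC replicate 2.

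The H3.3 pair summed to 356 ± 12.1 FPKM in NC, 615 ± 124 FPKM with MK1775 and 553 ± 70.5 FPKM under the siRNA label. H3f3b held 76.1 ± 2.93% of it in NC, 82.8 ± 3.77% with MK1775 and 83.7 ± 3.83% under the siRNA label, with overlap between NC and both treated groups. With unnamed transcripts added, its share was 76.4% to 79.4% in NC, 84.2% to 85.2% with MK1775 and 84.0% to 88.1% under the siRNA label, without overlap with NC.

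**Figure D3:**
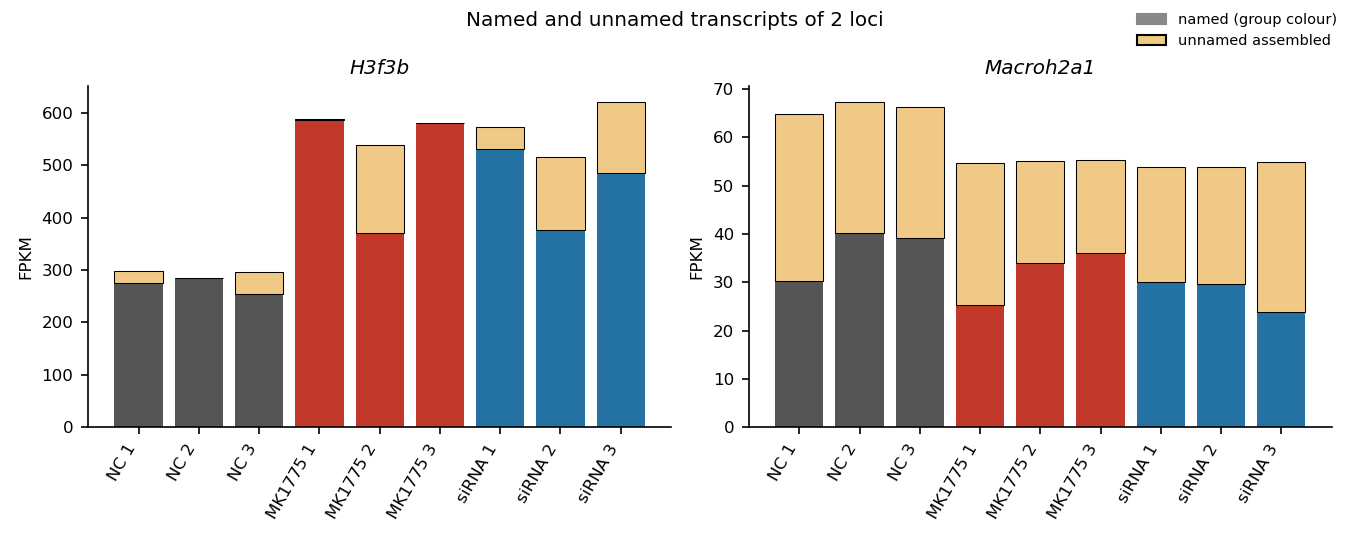
FPKM of the named transcripts (group colours: grey NC, red MK1775, blue Wee1 siRNA label) and of unnamed assembled transcripts (tan, stacked above) at H3f3b (left) and Macroh2a1 (right) in each library. The stacked totals vary less within a group than the named part: Macroh2a1 totals 64.8 to 67.3 FPKM in NC and 53.8 to 55.2 FPKM in the treated libraries.

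Macroh2a1, which encodes a histone with a large macro domain at its end, lies at chr13:56221432-56284174 on the minus strand with 8 named transcripts. Its named transcripts gave 30.3, 40.1 and 39.2 FPKM in NC, 25.2, 34.0 and 36.0 FPKM with MK1775, and 30.1, 29.6 and 23.8 FPKM under the siRNA label. The MK1775 libraries overlapped with NC and the siRNA-labelled libraries were just below it. Neither difference passed the test, at -0.20 (SE 0.16, adjusted p = 0.361) and -0.38 (SE 0.16, adjusted p = 0.0964). Single libraries moved both: the first was -0.052 without MK1775 replicate 1, -0.13 without NC replicate 2 and -0.33 without NC replicate 1, and was called in none of these. The second ranged from -0.27 without siRNA-labelled replicate 3 to -0.51 without NC replicate 1 (adjusted p = 0.0442), where it was called.

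An unnamed transcript at the same locus held 34.8% to 56.7% of its FPKM. With it added, Macroh2a1 stood at 64.8, 67.3 and 66.2 FPKM in NC, at 54.7, 55.1 and 55.2 FPKM with MK1775, and at 53.8, 53.9 and 54.9 FPKM under the siRNA label. All treated libraries then lay below all NC libraries, with differences of -0.26 (adjusted p = 2.00e-04) and -0.28 (adjusted p = 1.19e-04). On that scale 7 of 8 variants were called with MK1775 and 6 of 8 under the siRNA label, beside 54.1% and 56.2% of all tested genes. The named coding transcripts ENSMUST00000016081 and ENSMUST00000045788 differ in 1 exon. The second held 16.6%, 29.4% and 27.6% of their sum in NC, 26.3%, 38.4% and 37.6% with MK1775, and 38.1%, 18.6% and 21.0% under the siRNA label, with overlap between all groups. The unnamed transcript, of 9 exons as these 2 are, was assigned to neither form, so these are not shares of the locus. Macroh2a2 (chr10:61574444-61619926, minus strand) stood at 0.0910 to 0.250 FPKM in the 9 libraries, so Macroh2a1 made up over 99% of this pair in each library.

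Cenpa (chr5:30824121-30832174, plus strand, 10 named transcripts) encodes the histone that marks centromeres. It stood at 101, 110 and 109 FPKM in NC, at 112, 113 and 116 FPKM with MK1775, and at 110, 109.5 and 114 FPKM under the siRNA label. The MK1775 libraries were above NC by a narrow margin, and the siRNA-labelled libraries overlapped with it. The differences were 0.084 (95% interval -0.016 to 0.18, adjusted p = 0.161) and 0.057 (95% interval -0.043 to 0.16, adjusted p = 0.327), and neither was called. Without NC replicate 1, the lowest NC library, they were 0.045 and 0.018. The most abundant transcript alone, ENSMUST00000133316, fell below NC in mean, at 66.3, 60.2 and 52.0 FPKM, with differences of -0.13 and -0.36 that were not called. By GENCODE M21 transcript type, 39.6% to 77.7% of Cenpa FPKM was assigned to transcripts typed as targets of nonsense-mediated decay. Coding ones were assigned 10.1% to 48.9%, so the summed level need not be the level of the coding message. How well reads were told apart between these transcripts was not tested.

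**Figure D4:**
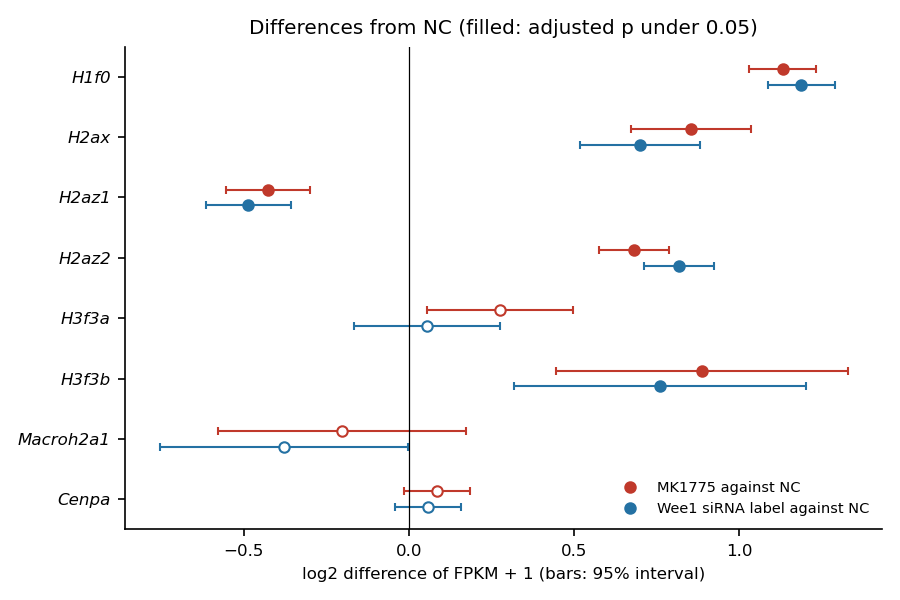
Difference from NC on log2(FPKM + 1) for the 8 tested variant genes, with 95% intervals from limma; red is MK1775, blue the Wee1 siRNA label, and filled points have an adjusted p under 0.05. H1f0, H2ax, H2az2 and H3f3b lie to the right of 0 and H2az1 to the left in both comparisons.

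Set against each other directly, MK1775 and the siRNA label gave 0 called genes among the 8 variants by limma, beside 0.00957% of all tested genes (1 gene). At an unadjusted p under 0.05 there was 1 variant gene, H2az2, and 616 genes in all. H2az2 was lower with MK1775 by a log2 difference of -0.14 (limma, 95% interval -0.24 to -0.031), with all 3 MK1775 libraries below all 3 siRNA-labelled libraries. Its adjusted p from limma was 0.712. H3f3a was higher with MK1775, by 0.22 (95% interval -0.00047 to 0.44, adjusted p = 0.845), also without overlap. These 2 of 8 genes were apart, where 11.9% of all tested genes were. For H1f0 the interval of the difference was -0.16 to 0.044, and for H3f3b it was -0.32 to 0.57.

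The 10 genes summed to 1220 ± 42.2 FPKM in NC, 1721 ± 133 FPKM with MK1775 and 1647 ± 86.5 FPKM under the siRNA label. The values were 1174 to 1258 FPKM in NC and 1559 to 1822 FPKM in the treated libraries. H1f0 and H3f3b accounted for the main part of the increase, and H2az1 counted against it.

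Of 13 other genes listed as histone variants, 4 passed the filter on low values. These 4 rose in both comparisons, beside 17.9% and 19.6% of all tested genes, but H2bu2 and H3f4 passed through their treated libraries and had to differ. The other 9 were too low to test. Whether the messages of these 13 genes end in a stem-loop or a poly(A) tail was not checked. H2aj, an H2A variant, averaged 10.1 FPKM in NC, 22.3 FPKM with MK1775 and 23.3 FPKM under the siRNA label (log2 differences 1.09 and 1.14, adjusted p = 2.46e-04 and 1.89e-04). H2aw averaged 1.51, 7.72 and 12.5 FPKM and H2bu2 0.0292, 3.95 and 3.13 FPKM. H3f4 was listed at 0 in the NC libraries and averaged 1.65 and 2.66 FPKM in the treated groups.

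The genes whose products place, modify or read these variants moved in both directions. Of 63 listed, 61 were tested. With MK1775, 7 rose and 19 fell, 42.6% of the 61; under the siRNA label, 11 rose and 18 fell, 47.5%. These shares stand near the 41% and 42.8% of all tested genes. By direction, 17.9% and 19.6% of all tested genes rose and 23.1% and 23.2% fell. The median differences were -0.10 and -0.091, beside -0.040 and -0.013 over all tested genes. Compared directly, MK1775 and the siRNA label gave 0 of 61 by limma, with 2 at an unadjusted p under 0.05.

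Of 8 genes for H3.3, 3 rose and 1 fell in each comparison, or 50% called beside 41% and 42.8% of all tested genes. Daxx, the chaperone that places H3.3 at repeats with Atrx, averaged 6.72 FPKM in NC, 9.48 FPKM with MK1775 and 10.1 FPKM under the siRNA label (log2 differences 0.44 and 0.52). Hira, the chaperone for active genes, went the other way, from 18.5 FPKM to 14.3 and 14.8 FPKM (-0.35 and -0.30). Ubn1, a partner of Hira in the same complex, averaged 6.41, 11.5 and 12.2 FPKM (0.78 and 0.84). With only the most abundant transcript of each gene, these 2 genes missed the threshold in both comparisons, at differences of 0.37 and 0.64 for Daxx and 0.54 and 0.78 for Ubn1.

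Of 12 tested genes for H2A.Z, 1 rose and 4 fell in each comparison, or 41.7% called beside 41% and 42.8% of all tested genes. Vps72, the subunit of the SRCAP and p400 remodellers that binds H2A.Z, fell from 35.9 FPKM to 23.3 FPKM in both treated groups (-0.60 and -0.60). Ruvbl1, an ATPase of the same remodellers, fell from 55.8 FPKM to 40.8 and 40.9 FPKM (-0.44 and -0.44). Ino80, a remodeller reported to act on H2A.Z nucleosomes, rose from 5.36 FPKM to 8.54 and 8.74 FPKM (0.59 and 0.61).

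Of 10 genes for CENP-A, 1 rose and 2 fell with MK1775, and 2 rose and 2 fell under the siRNA label. These are 30% and 40%, beside 41% and 42.8% of all tested genes called. Cenpn, which recognises CENP-A nucleosomes, rose from 18.5 FPKM to 28.2 and 29.0 FPKM (0.58 and 0.62). Cenpm and Cenpi, subunits of the same centromere network, fell, Cenpm from 8.06 FPKM to 5.28 and 5.04 FPKM (-0.52 and -0.58). Cenpi averaged 10.0, 7.47 and 6.85 FPKM (-0.37 and -0.48). Its call with MK1775 was lost in 11 of 22 alternative settings, among them leaving out NC replicate 1 (-0.26), NC replicate 2 (-0.35) or any of the MK1775 libraries (-0.36, -0.40 and -0.35).

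Of 9 tested genes for H2A.X, 3 fell with MK1775, while 3 rose and 2 fell under the siRNA label. These are 33.3% and 55.6%, beside 41% and 42.8% of all tested genes called. Rnf168, a ubiquitin ligase at DNA breaks, fell from 8.11 FPKM to 6.72 and 6.80 FPKM (-0.24 and -0.22). That call was lost without NC replicate 3 in both comparisons (-0.21 and -0.20), and without siRNA-labelled replicate 1 in the second (-0.19). Atr, a kinase that phosphorylates H2A.X, averaged 2.88, 4.15 and 5.74 FPKM. Its difference was 0.42 with MK1775 (adjusted p = 0.125) and 0.78 under the siRNA label (adjusted p = 0.0135), where it was called. Eya1, a phosphatase of H2A.X, averaged 3.14, 2.11 and 2.01 FPKM (-0.40 and -0.44). Its call was lost with MK1775 without NC replicate 1 (-0.26), any MK1775 library (-0.37, -0.44 and -0.39) or siRNA-labelled replicate 1 or 2 (-0.40 each), and under the siRNA label without siRNA-labelled replicate 1 (-0.43) or 2 (-0.40). With its most abundant transcript alone, Eya1 stood at -0.13 (adjusted p = 0.485) and -0.25 (adjusted p = 0.179).

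Of 5 genes for macroH2A, 1 rose and 1 fell in each comparison, or 40% called beside 41% and 42.8% of all tested genes. Parp1, the poly(ADP-ribose) polymerase whose activity macroH2A is known to bind and restrain, fell from 59.1 FPKM to 40.0 and 39.6 FPKM (-0.55 and -0.57). Spop, a substrate adaptor of a ubiquitin ligase, rose from 20.7 FPKM to 29.8 and 31.9 FPKM (0.51 and 0.60). With the most abundant transcript alone, Spop stood at -0.075 with MK1775 and 0.44 under the siRNA label (adjusted p = 0.335), and was called in neither comparison.

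Of 7 genes that compete with or handle linker H1, 1 rose and 3 fell with MK1775. Under the siRNA label 1 rose and 2 fell. These are 57.1% and 42.9%, beside 41% and 42.8% of all tested genes called. Hmgn1, a nucleosome-binding protein that competes with H1, rose from 169 FPKM to 203 and 197 FPKM (0.26 and 0.22). Hmga1, which also competes with H1 for DNA, fell from 331 FPKM to 276 and 260 FPKM (-0.26 and -0.35). Set, a histone chaperone, averaged 282, 232 and 222 FPKM (-0.28 and -0.34). With the most abundant transcript alone, Set stood at 0.060 with MK1775 and -0.46 under the siRNA label (adjusted p = 0.09), and was called in neither comparison. Hmga1 stood at -0.16 with MK1775 on that scale and was not called.

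Of 10 chaperones and factors shared by several histones, 5 fell with MK1775 and 6 under the siRNA label, and 0 rose in either comparison. Over all tested genes, 23.1% and 23.2% fell and 17.9% and 19.6% rose. Nap1l1, a chaperone of H2A and H2B, fell from 209 FPKM to 137 and 140 FPKM (-0.61 and -0.58). Nap1l4, of the same family, stood at 53.8 to 56.9 FPKM in NC, at 16.4 to 23.5 FPKM with MK1775 and at 8.72 to 22.7 FPKM under the siRNA label (-1.48 and -1.93). Asf1b, a chaperone of H3 and H4, fell from 51.0 FPKM to 38.0 and 35.2 FPKM (-0.42 and -0.52).

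**Figure D5:**
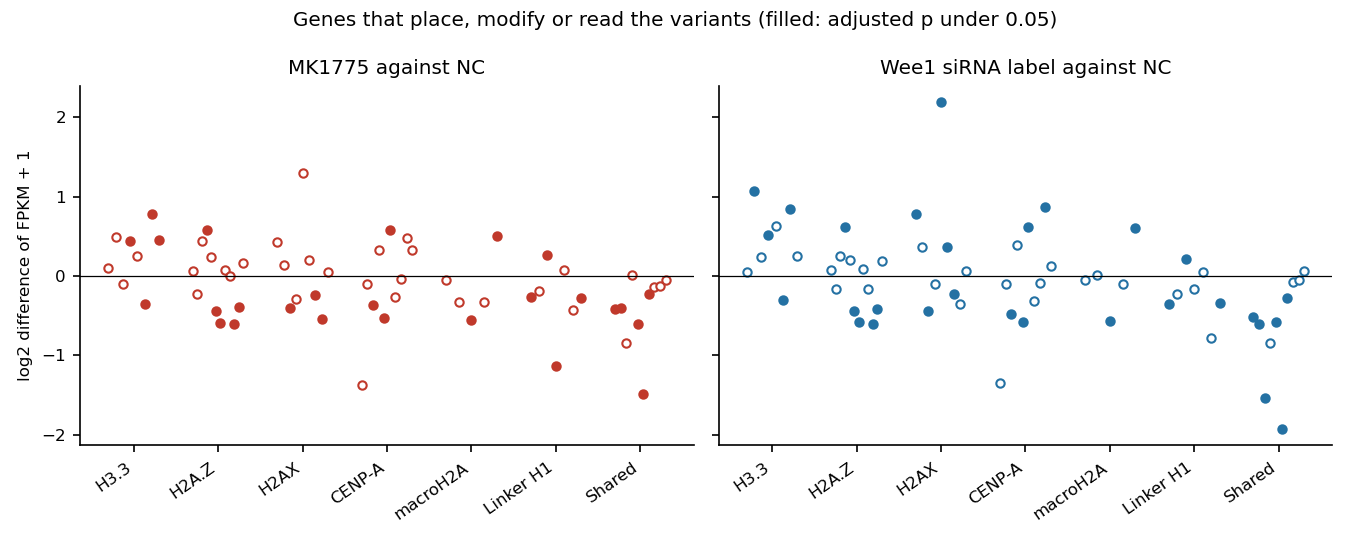
Difference from NC on log2(FPKM + 1) of the 61 tested genes that place, modify or read the variants, grouped by the variant they serve, with MK1775 on the left and the Wee1 siRNA label on the right; filled points have an adjusted p under 0.05. Filled points lie on both sides of 0 in most groups, while those of the shared chaperones, 5 and 6 of 10, lie below it, beside 23.1% and 23.2% of all tested genes called lower.

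The genes whose levels over the 9 libraries were most like those of H1f0, by Pearson correlation of log2(FPKM + 1), were Fbxl20 (r = 0.998), Gla (r = 0.998) and Arf2 (r = 0.998). Such values describe 9 libraries in 3 groups and carry no test. Arf2 stood at 8.37 to 9.52 FPKM in NC and 18.7 to 20.2 FPKM in the treated libraries. Gla stood at 2.28 to 2.63 FPKM in NC and 7.73 to 8.35 FPKM in the treated libraries, and Fbxl20 at 0.650 to 0.740 and 2.83 to 3.28 FPKM.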

How the data were processed

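RNA-seq of 9 libraries of 4T1 cells was used (NC, MK1775 and Wee1 siRNA label, 3 each). Per the labels' protocols, RNA was taken with an RNeasy kit and libraries were made with an NEBNext kit. The submitters' processing notes name FastQC, Trim Galore, HISAT2 and StringTie, with no versions, and the build GRCm39. The authors deposited FPKM for 158719 transcripts, of which 17991 carry no gene name. FPKM of transcripts sharing a gene name were summed, leaving out 19 names that occur on more than 1 chromosome. Low values were not whole multiples of a common step, so depth is unknown. Use of strand in counting is not stated, so a gene's reads cannot be told apart from those of an antisense or overlapping neighbour.

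In R 4.3.3, limma 3.58.1 was fitted to log2(FPKM + 1) of the 10453 genes whose mean reached 1 FPKM, with 3 group means, no covariate and a mean-variance trend. This scale understates the change of low genes. P-values are two-sided and Benjamini-Hochberg adjusted, with a threshold of 0.05, and the fit was tested on simulated data. Figures used matplotlib 3.10.9. Transcript types and coding sequences came from GENCODE M21 by transcript ID. Promoter windows came from RefSeq on GRCm38.p6, and gene coordinates from the deposited table on GRCm39; the builds were not mixed.

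Named genes are the 10 variants, at most 3 called genes of smallest adjusted p in each group of the 63 handling genes, the 3 genes most like H1f0, Wee1 and cell type markers. H1f1, H1f2, H1f3, H1f4, H1f5, H2aj, H2aw, H2bu2 and H3f4 are outside this rule and were named after their values were seen. The variants and gene lists were chosen with earlier results of these data known. The settings tried were other pseudocounts, filters, scalings and transcript sums, limma options, a replicate block and leaving out each library.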

Additional observations from a re-analysis of the deposited data

Results flagged for a closer look

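An unnamed assembled transcript at H2az2, outside the named transcripts that were compared, was listed at 0 in the NC libraries and had a mean of 0.385 FPKM with MK1775 and 0.521 FPKM in the libraries labelled Wee1 siRNA. All 6 treated libraries were above 0, between 0.102 and 1.10 FPKM, or 0.308% to 3.25% of the locus. The unnamed transcripts at H3f3b had a mean of 105 FPKM under the siRNA label, with all 3 libraries, at 42.3, 138 and 135 FPKM, above the highest NC library at 41.5 FPKM. With MK1775 this held for replicate 2 alone, at 169 FPKM. These signals were not tested.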

How the results depend on the processing

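Each result was recomputed under up to 22 alternatives. The calls of H1f0, H2ax, H2az1, H2az2, H3f3b and Wee1 against NC held in all 22. The variants called numbered 5 to 7 with MK1775, 5 to 6 under the siRNA label and 0 in the direct comparison. Taking the most abundant transcript of each gene gave 16 and 19 handling genes called with MK1775 and the siRNA label, in place of 26 and 29. In that setting 59 of them were tested, and 32.2% and 34.1% of all tested genes were called. Array weights gave 38 and 39 handling genes, beside 55.6% and 55.0% of all genes, and adding unnamed transcripts gave 36 and 34, beside 54.1% and 56.2%. The most abundant transcript moved the share of H3f3b to 79.9% in NC and 87.2% with MK1775, and that of H2az1 to 97.2% in NC, 92.8% with MK1775 and 92.0% under the siRNA label. This setting turned the direction of H3f3a (-0.010) and Cenpa (-0.13) with MK1775, of Cenpa under the siRNA label (-0.36), of H3f3a in the direct comparison (-0.057), of Set (0.060) and Spop (-0.075) with MK1775 and of Cenpi under the siRNA label (0.14). H3f3a under the siRNA label turned to -0.047 without NC replicate 2 and -0.025 without siRNA-labelled replicate 2, in a range of -0.047 to 0.11 over the libraries left out. Between the treatments, H3f3b turned to -0.017 without siRNA-labelled replicate 2, in a range of -0.017 to 0.34, and Cenpa to -0.015 with quantile normalization. With quantile normalization Cenpa was called under the siRNA label (0.12, adjusted p = 0.0423). The cause of these changes was not tested. Same-numbered libraries correlated at -0.12 to 0.043 in their deviations from group means, and 1 of 9 correlated best with its own number. No pairing by number was seen over all tested genes, and shared handling by number was not tested. A replicate block gave 5, 5 and 0 variants called and 3881 and 4079 genes called against NC, in place of 4282 and 4474. It ended the calls of Cenpi (-0.37, adjusted p = 0.0508) and Eya1 (-0.40, adjusted p = 0.0718) with MK1775. Depth is unknown, so no counting error is given.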

Other observations

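The share of Cenpa FPKM in coding transcripts differed between libraries of 1 group more than between groups. It was 28.0%, 14.0% and 27.9% in NC, 28.0%, 10.1% and 37.1% with MK1775 and 48.9%, 13.4% and 35.1% under the siRNA label. The lowest library of each group was replicate 2. Transcripts typed as targets of nonsense-mediated decay held 77.7%, 76.1% and 65.6% in these same libraries, the highest of each group, while the summed Cenpa level stayed between 101 and 116 FPKM. This pattern was seen after the values were known and was not tested.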
